A study of Mus musculus with 4 samples.

Results

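The nuclear genes of the mitochondrial respiratory chain were followed across sections of mouse hearts before and after myocardial infarction. Genes were taken by symbol, as those that start with Nduf followed by a, b, c, s or v, the Sdh genes a to d, and those that start with Uqcr, with Cox and a digit from 4 to 8, or with Atp5. This gave 97 of the 21885 genes counted, of which 95 had at least 1 UMI (unique molecular identifier, a counted RNA molecule). Levels are given as CPM, UMIs scaled to a common library of UMIs outside mitochondrially encoded genes, and 86 genes reached 50 CPM over a whole section. By complex, 46 belonged to complex I, 4 to complex II, 8 to complex III, 21 to complex IV and 18 to complex V. The 46 genes of complex I were 37 subunits, 8 assembly factors of the Ndufaf series and 1 retrocopy, Ndufb11b. Ndufa4 and its paralogue Ndufa4l2 were placed with complex IV, where the Ndufa4 protein resides. The rule also takes in the pseudogene Cox5b-ps and 2 entries with the symbol Atp5o, 1 of them at 0.

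Polyadenylated RNA was captured on Visium arrays, where each spot can hold several cells of different types, on 1 section of each of 4 hearts. All mice carried the genotype Collagen1a1-GFP+, a green reporter driven by a collagen promoter active in fibroblasts, and were 8 to 12 weeks old. The groups were 1 control heart without infarction, 1 heart at 3 days after ligation of the left anterior descending coronary artery (3 dpi), and 2 hearts at 5 dpi, called 5 dpi F and 5 dpi M after the sex their labels give. Their 4 Y-linked genes went against these labels, with 704 UMIs in 5 dpi F and 1 in 5 dpi M, so F and M are names here and not sexes. Where 3 values follow each other they belong to 3 dpi, 5 dpi F and 5 dpi M, in that order.

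After filtering, the control kept 1146 spots and the infarcted sections 1741, 1535 and 1423, with 6250183 UMIs in the control and 10656544, 11010109 and 9701545 in the others. Pairs of sections shared between 446 and 1165 spot barcodes, which are positions of 1 array layout. The control and 3 dpi have no replicate, and intervals below cover counting error only.

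The respiratory chain carries electrons from NADH and succinate to oxygen and uses the energy to pump protons, which drive ATP synthesis. Complex I (NADH dehydrogenase, Nduf genes), complex II (succinate dehydrogenase, Sdh), complex III (cytochrome bc1, Uqcr) and complex IV (cytochrome c oxidase, Cox) form the chain, and complex V (Atp5) is the ATP synthase. Most subunits are encoded in the nucleus and a small core in mitochondrial DNA, and cardiomyocytes, which contract without pause, are among the cells richest in mitochondria. In complex IV a few subunits come as pairs of genes, with a muscle form that heart and skeletal muscle use (Cox6a2, Cox7a1 and Cox8b) and a general form found in most cells (Cox6a1, Cox7a2 and Cox8a).

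Among the members, the isoforms of complex IV had both the lowest and some of the smallest differences between spots described below, so the start regions of the muscle and general genes of 2 pairs are shown. Each window runs from 250 bases before to 50 bases after the RefSeq start site on GRCm38.p6, 5′ to 3′ on the gene's strand. Capitals mark matches on either strand to CCGGAAG, a core bound by the ETS factor GABP, in Cox8a, and to CAGCTG, an E-box of muscle, in Cox8b.
Cox7a1, chr7:30183921-30184220, plus strand: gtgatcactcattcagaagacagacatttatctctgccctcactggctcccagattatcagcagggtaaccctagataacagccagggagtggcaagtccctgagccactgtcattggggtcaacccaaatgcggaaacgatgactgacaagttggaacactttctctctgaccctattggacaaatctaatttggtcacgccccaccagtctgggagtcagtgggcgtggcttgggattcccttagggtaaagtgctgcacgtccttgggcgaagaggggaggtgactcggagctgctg
Cox7a2, chr9:79759804-79760103, minus strand: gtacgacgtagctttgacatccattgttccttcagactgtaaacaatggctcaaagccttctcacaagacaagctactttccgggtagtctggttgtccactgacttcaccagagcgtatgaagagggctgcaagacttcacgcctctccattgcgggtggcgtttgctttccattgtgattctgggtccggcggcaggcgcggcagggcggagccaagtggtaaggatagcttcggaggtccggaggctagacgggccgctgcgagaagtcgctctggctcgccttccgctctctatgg
Cox8b, chr7:140900397-140900696, minus strand: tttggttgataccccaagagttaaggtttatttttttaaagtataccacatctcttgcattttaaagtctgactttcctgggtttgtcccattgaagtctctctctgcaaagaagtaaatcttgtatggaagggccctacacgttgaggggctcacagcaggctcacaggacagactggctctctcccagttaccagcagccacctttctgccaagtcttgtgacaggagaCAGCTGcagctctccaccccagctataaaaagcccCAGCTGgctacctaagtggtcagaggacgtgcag
Cox8a, chr19:7217567-7217866, minus strand: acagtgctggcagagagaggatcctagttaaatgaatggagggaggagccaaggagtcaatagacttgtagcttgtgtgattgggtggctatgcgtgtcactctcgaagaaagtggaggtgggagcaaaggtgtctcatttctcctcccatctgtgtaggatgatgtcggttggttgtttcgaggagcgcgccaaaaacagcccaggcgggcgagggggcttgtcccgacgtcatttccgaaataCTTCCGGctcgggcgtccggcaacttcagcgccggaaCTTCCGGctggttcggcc

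The muscle windows held 7 CpG dinucleotides in Cox7a1 and 2 in Cox8b, and the general windows 20 in Cox7a2 and 19 in Cox8a. RefSeq windows were matched for 77 of the 97 genes, Cox6a2 not among them, and their median of 20 CpG stood beside 7 over all 32851 windows of the table. Members without such a pair also reached low counts, with 5 in Cox7b and 8 in Ndufc2. CCGGAAG was present in 23.4% of the matched members and 8.86% of all windows. The core read by the factor NRF1, GCGC and TGCGC with any base between them, was present in 23.4% against 4.6%, and AAGGTCA, the core of the estrogen-related receptors (ERR), in 10.4% against 4.72%. CAGCTG was present in 7.79% against 16.3%, and the MEF2 motif in 0 of 77 members against 3.19% of all windows. Both strands were searched, and a match is a description of letters, not of binding. The windows compared were not matched for CpG, and CCGGAAG and the NRF1 core contain CpG themselves. The rates therefore cannot be told apart from the difference in CpG.

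Respiratory chain RNA made up a far larger share of the library in the control heart than in the infarcted hearts. As counts, the members had 803934 UMIs in the control and 754192, 505543 and 761792 in the infarcted sections. Members made up 21.5% of UMIs outside mitochondrially encoded genes in the control and 9.01, 5.299 and 9.16% in the infarcted sections. The control level was 2.75 times the mean of the 3 infarcted sections, and 2.39, 4.05 and 2.34 times that of each. The infarcted sections held regions with little cardiomyocyte RNA, and the maps of the member share per spot show where. In a spot, as in any bulk sample, fewer cardiomyocytes and less RNA per cardiomyocyte cannot be told apart.

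**Figure D1:**
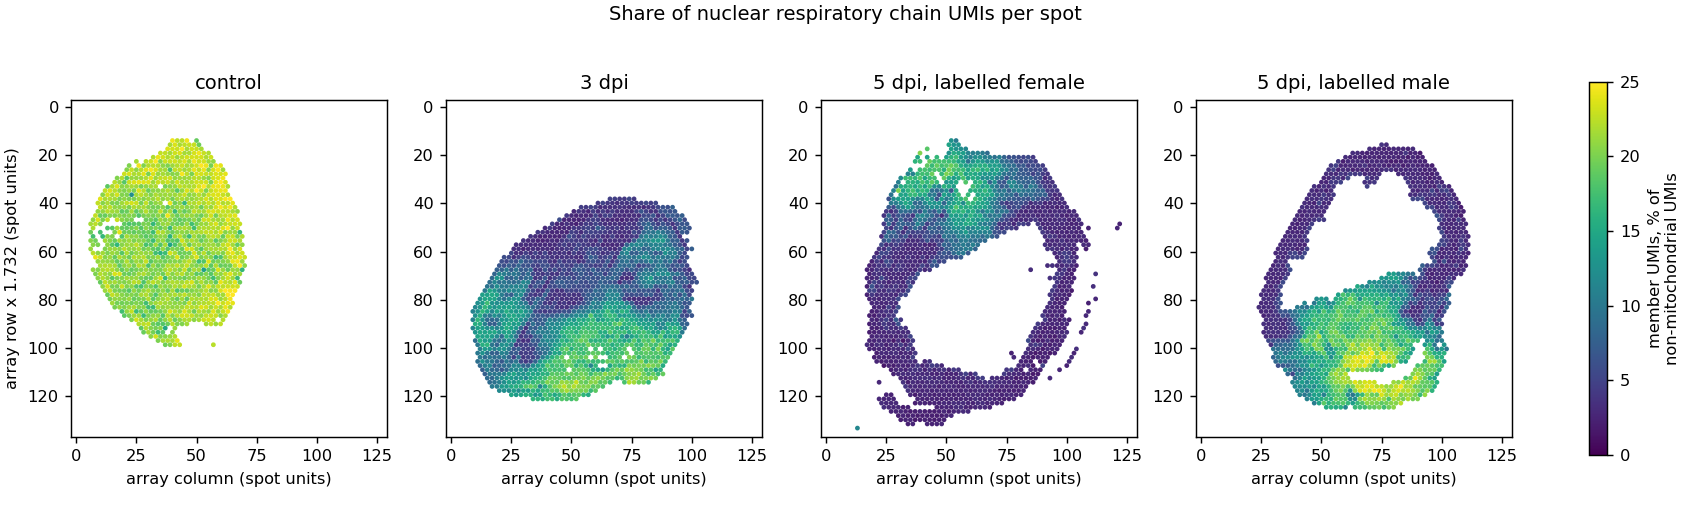
Each dot is a kept spot at its array position, coloured by the share of its UMIs outside mitochondrially encoded genes that came from the 97 members, on a scale from 0 to 25%. The control section is bright throughout, and the 3 infarcted sections, with shares of 9.01, 5.299 and 9.16% over the whole section, each combine a bright region with a dark one.

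Of the 86 members at 50 CPM or more, 77 lay at least 1.5-fold above every infarcted section in the control, where 16.3% of the 3524 genes at that level did so. Without the 1.5-fold limit 83 lay above, where 31.0% of these genes did. Only Cox6a1, the general isoform of subunit VIa, lay below every infarcted section, and by 1.5-fold or more, where 60.4% and 38.7% of genes did. Cox6a1 stood at 354 CPM in the control and 646, 580.4 and 548 CPM after infarction. With 1 control section there is no test of these differences.

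To separate how much cardiomyocyte RNA a spot held from how much respiratory chain RNA came with it, each spot was given the share of 12 cardiomyocyte genes (Myh6, Tnnt2, Tnni3, Actc1, Myl2, Myl3, Pln, Mb, Ckm, Tcap, Ryr2 and Ttn) in its UMIs outside mitochondrially encoded genes. None of the members is among the 12. Spots were called rich from 0.75 of the section's own 90th percentile of this share, intermediate from 0.5 to 0.75, and poor under 0.5. The control held 1099 rich, 46 intermediate and 1 poor spot, and its poor class was not used. The infarcted sections held 497, 286 and 509 rich, 339, 147 and 220 intermediate, and 905, 1102 and 694 poor spots. The 90th percentile was 11.4% in the control and 10.5%, 8.19% and 9.28% after infarction, so rich is defined within a section.

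Poor spots held more fibroblast, macrophage and neutrophil RNA, but not more RNA of every other cell type. The 7 fibroblast genes summed to 13306, 24520 and 22098 CPM in poor and 3263, 5095 and 2949 CPM in rich spots, and the 8 macrophage genes to 6409, 10089 and 9560 CPM and 1457, 1717 and 1244 CPM, with UMIs for every gene of both lists in both classes. The 4 neutrophil genes summed to 247, 244 and 222 CPM in poor and 29.5, 81.4 and 24.5 CPM in rich spots. The 6 endothelial genes gave 693, 556 and 654 CPM in poor and 631, 810 and 666 CPM in rich spots. The 4 erythroid genes gave 3283, 23266 and 11861 CPM in poor and 6207, 27406 and 14499 CPM in rich spots. Mural genes are given below. The part of these cells in the differences below was not tested.

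Scaled to the library, member levels and cardiomyocyte RNA were low in the same spots of each infarcted heart. Poor spots gave 5.503, 3.55 and 3.95% of their UMIs outside mitochondrially encoded genes to the members, intermediate spots 11.7, 9.24 and 12.7% and rich spots 16.9, 14.4 and 18.5%. The rich level was 3.08, 4.07 and 4.69 times the poor level. The order poor, intermediate, rich held in 3 of 3 sections.

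UMIs were summed per section and class and compared by the quasi-likelihood test of edgeR, with the section as a block. Of 93 members tested, 90 were lower in poor than in rich spots and 0 were higher, at a Benjamini-Hochberg adjusted p under 0.05 over all 10804 genes tested, of which 26.1% were lower, 26.3% higher and 52.4% either. DESeq2 gave the same counts of 90 and 0, and 0 members were higher at an unadjusted p under 0.05 in edgeR, where 29.3% of all genes were. The median log2 fold change of the members was -2.28, beside 0.05 over all genes tested and -3.94 over the 12 cardiomyocyte genes, which the classes were made from. A total of 78 members lay between -3 and -1.5. By CPM alone, 87 of 93 members were lower in poor spots in 3 of 3 sections. The share of all genes that did so was not counted, so this number has no background. TMM scaling moved the poor-over-rich differences by 0.42 on the log2 scale towards lower values. Without it 86 members were lower and 0 higher, where 16.3% and 47.2% of all genes were. With all UMIs as the library, mitochondrially encoded ones included and without TMM, 81 were lower and 4 higher. On that scale 9.45% of all genes were lower and 73.0% higher.

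**Figure D2:**
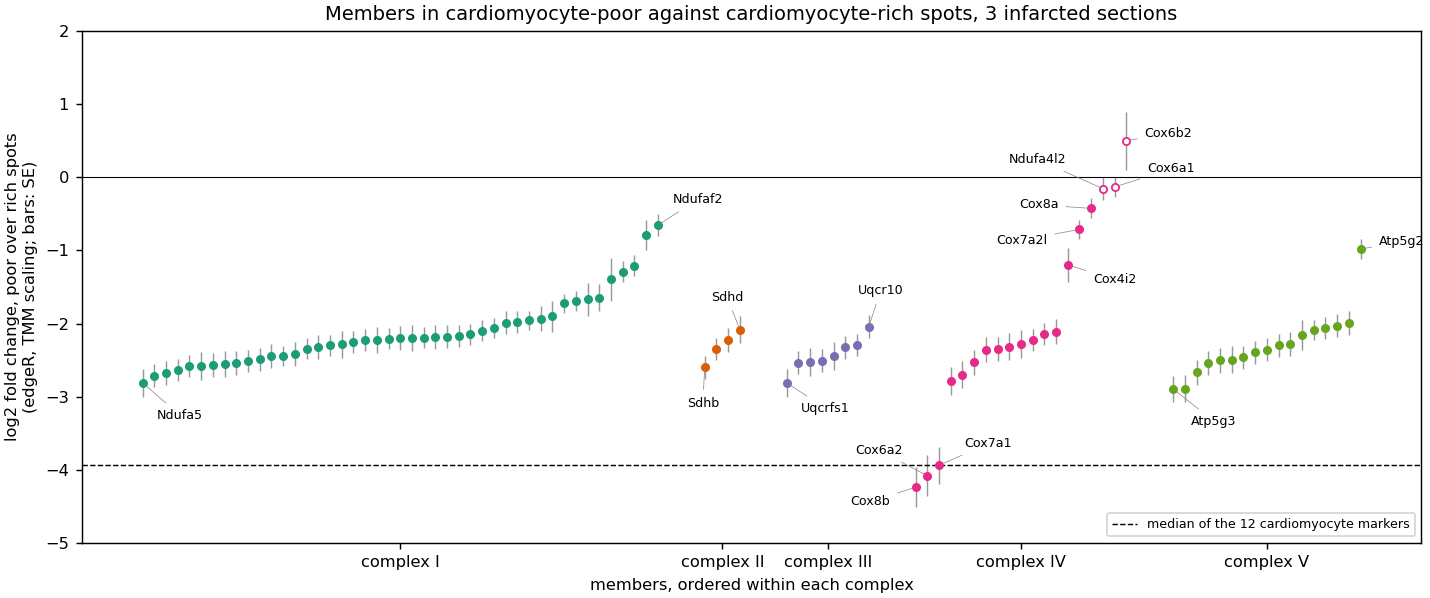
Log2 fold change of poor over rich spots (edgeR, TMM scaling) for each of 93 members, grouped by complexes I to V, with bars for the standard error and open circles where the adjusted p was not under 0.05. Most points lie between -3 and -1.5, with Cox8b, Cox6a2 and Cox7a1 near the dashed median of the 12 cardiomyocyte genes (-3.94) and Cox6a1 and Ndufa4l2 near 0.

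Complex I, which takes electrons from NADH, fell as a whole. All 45 tested members were lower, with a median log2 fold change of -2.20. The core subunits Ndufs1 (-2.67 ± 0.17, SE) and Ndufv1 (-2.44 ± 0.14) had adjusted p of 9.9e-09 and 5.6e-09 in edgeR. Ndufs1 stood at 341, 285 and 308 CPM in rich and 96.3, 53.2 and 52.6 CPM in poor spots. No value of one class reached the other. The lowest fold change in the complex was that of the accessory subunit Ndufa5 (-2.81 ± 0.19).

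The 8 assembly factors, which help to build complex I and are not part of the finished enzyme, were also lower, with a median of -1.34. Ndufaf2 had the smallest change (-0.65 ± 0.16, adjusted p = 0.0025 in edgeR), at 55.7, 41.1 and 70.4 CPM in rich and 53.6, 39.1 and 49.98 CPM in poor spots. Its call was lost without 5 dpi M, at -0.44, and without TMM scaling, at -0.22, and the value was 0.33 with all UMIs as the library.

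All 4 subunits of succinate dehydrogenase were lower. The iron-sulfur subunit Sdhb changed by -2.60 ± 0.16, the flavoprotein Sdha by -2.35 ± 0.15, and the membrane anchors Sdhc and Sdhd by -2.23 ± 0.17 and -2.08 ± 0.18. Sdhb stood at 1307, 1037 and 1130 CPM in rich and 371, 199 and 223 CPM in poor spots. The classes of this gene did not overlap across sections.

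All 8 members of complex III were lower, with a median of -2.48. Uqcrfs1, the Rieske iron-sulfur protein, changed most (-2.81 ± 0.19) and the small subunit Uqcr10 least (-2.05 ± 0.16). The core protein Uqcrc1 changed by -2.54 ± 0.15, from 1704, 1443 and 1438 CPM in rich to 502, 276 and 311 CPM in poor spots.

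All 17 tested members of complex V were lower, with a median of -2.36, near Atp5a1 (-2.46 ± 0.15) and Atp5b (-2.40 ± 0.15), the alpha and beta subunits of the catalytic head. Atp5b stood at 4977, 4304 and 4341 CPM in rich and 1526, 976 and 1019 CPM in poor spots. The 3 genes for subunit c, which encode the same mature protein of the rotor ring, had unequal changes. Atp5g1 changed by -2.89 ± 0.19 and Atp5g3 by -2.89 ± 0.18, and Atp5g2 by -0.98 ± 0.14 (adjusted p = 3.4e-05 in edgeR), though by 0.0013 with all UMIs as the library. Atp5g2 gave 10.5, 9.55 and 13.6% of the UMIs of the 3 genes in rich spots and 24.3, 34.7 and 38.5% in poor spots. That share was higher in poor spots in 3 of 3 sections, by 21.3 ± 6.52 percentage points (SD, n = 3), with a two-sided exact permutation p = 0.25, the smallest that 3 sections allow.

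Complex IV, which passes electrons to oxygen, had the widest spread. Of 19 tested members 16 were lower, with a range from -4.24 to 0.50. The 8 subunits with no isoform pair had a median of -2.35, among them Cox5a (-2.53 ± 0.17) and Cox5b (-2.35 ± 0.16, which may share reads with its pseudogene). Cox4i1, the usual form of subunit IV, changed by -2.22 ± 0.15 and Ndufa4 by -2.79 ± 0.19. The muscle isoforms stood below these genes and a group of other isoforms above them.

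The muscle isoforms had the 3 lowest log2 fold changes of the 93 members. Cox8b (ENSMUSG00000025488) stood at 4006, 3421 and 5262 CPM in rich and 516, 178 and 253 CPM in poor spots, a log2 fold change of -4.24 ± 0.27 with an adjusted p of 1.2e-08 in edgeR. Cox6a2 (ENSMUSG00000030785) stood at 7057, 5781 and 7769 CPM in rich and 1048, 336 and 404 CPM in poor spots (-4.08 ± 0.28, adjusted p = 1.8e-08 in edgeR). Cox7a1 (ENSMUSG00000074218) stood at 3852, 2937 and 4097 CPM in rich and 593, 199 and 240.1 CPM in poor spots (-3.94 ± 0.26, adjusted p = 1.2e-08 in edgeR). For each of the 3 genes every rich value was far above every poor value.

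The general isoforms had unequal values. Cox6a1 (ENSMUSG00000041697) stood at 499, 499 and 524 CPM in rich and 708, 601 and 565 CPM in poor spots, higher in poor spots in 3 of 3 sections by CPM. Its log2 fold change was -0.13 ± 0.13 after TMM scaling (adjusted p = 0.44 in edgeR) and 0.29 without it, or 0.85 with all UMIs as the library, so its direction depends on the scaling. Cox8a stood at 742, 675 and 918 CPM in rich and 824, 707 and 784 CPM in poor spots and was called lower (-0.42 ± 0.14, adjusted p = 0.018 in edgeR). That call was lost without 5 dpi F (-0.50), without 5 dpi M (-0.26), without the section block (-0.45) and without TMM scaling (-0.0016), and the value was 0.56 with all UMIs as the library. Cox7a2, in contrast, lay near the median of the complex at -2.15 ± 0.15, with 2560, 2028 and 2547 CPM in rich and 963, 589 and 641 CPM in poor spots.

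Cox7a2l, which takes part in joining complexes III and IV into supercomplexes, changed by -0.71 ± 0.13 (adjusted p = 3.7e-04 in edgeR), from 355, 327 and 349 CPM in rich to 276, 267 and 299 CPM in poor spots. That call was lost without TMM scaling, at -0.29, and the value was 0.27 with all UMIs as the library. Cox4i2, a form of subunit IV known from lung, was scarce, at 30.7, 29.8 and 37.6 CPM in rich and 20.7, 16.9 and 20.7 CPM in poor spots (-1.20 ± 0.23, adjusted p = 4.4e-04 in edgeR). Cox6b2, a testis form, stood at 4.55, 3.501 and 2.62 CPM in rich and 4.29, 9.81 and 7.17 CPM in poor spots (0.50 ± 0.40, adjusted p = 0.31 in edgeR).

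Ndufa4l2 (ENSMUSG00000040280), a hypoxia-inducible paralogue of Ndufa4, stood at 76.1, 78.8 and 66.9 CPM in rich and 71.9, 85.5 and 114 CPM in poor spots, and the test gave -0.15 ± 0.16 (adjusted p = 0.44 in edgeR), with 0.27 without TMM scaling and 0.83 with all UMIs as the library. Its sections did not go the same way. Ndufa4l2 gave 1.83, 1.91 and 1.25% of the UMIs of the pair with Ndufa4 in rich and 5.84, 11.05 and 12.7% in poor spots, a difference of 8.197 ± 3.804 percentage points (SD, n = 3) with a two-sided exact permutation p = 0.25. The 5 mural genes, which mark pericytes and smooth muscle, summed to 461, 594 and 378 CPM in rich and 308, 404 and 441 CPM in poor spots, with UMIs for all 5. The 5 did not go the same way, with 3 called lower and 2 higher in poor spots in edgeR, from -2.11 to 0.66. Of all genes tested, 26.1% were lower and 26.3% higher. The part of the mural genes in the Ndufa4l2 values was not tested.

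Intermediate spots stood between the other classes. Against rich spots, 75 of 93 members were lower and 0 were higher in edgeR, where 4.18% of all genes tested were lower, 2.81% higher and 7.0% either, and the median log2 fold change was -0.72. At an unadjusted p under 0.05, 84 were lower and 0 higher, where 11.1% of all genes were lower, and DESeq2 called 77 lower and 0 higher. Cox7a1 (-1.09 ± 0.23), Cox8b (-1.02 ± 0.24) and Cox6a2 (-0.99 ± 0.25) had adjusted p of 0.01, 0.018 and 0.024 in edgeR. Ndufb10 of complex I (-0.86 ± 0.15) and Atp5c1, the gamma subunit that turns in the synthase (-0.86 ± 0.15), were also called. Of the 18 members not called, 7 were assembly factors, and Cox6a1 (-0.08 ± 0.14), Cox8a (-0.02 ± 0.14) and Ndufa4l2 (0.30 ± 0.17) were among the rest. Without 5 dpi F 0 members were called and 80 were lower at an unadjusted p under 0.05 in edgeR, where 8.24% of all genes were, with a median of -0.70. The calls of Cox8b and Cox6a2 were also lost without 5 dpi M, where 61 members were called lower. Without the section block 0 were called and 78 were lower at an unadjusted p under 0.05, where 7.89% of all genes were. With all UMIs as the library 4 members were called lower and 1 higher, where 1.17% and 21.7% of all genes were, with a median of -0.32.

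The same comparison was made per cardiomyocyte UMI, that is with the UMIs of the 12 genes in place of the library as the scale. The 12 genes also set the classes, so this scale is not independent of them. Here 85 of 93 members were higher in poor than in rich spots and 2 were lower in edgeR, where 97.1% of all genes tested were higher, 0.3332% lower and 97.4% either. The median log2 fold change of the members was 1.17, beside 3.51 over all genes tested and -0.54 over the 12 genes themselves. The members called lower were Cox8b (-0.84 ± 0.34, adjusted p = 0.015) and Cox6a2 (-0.68 ± 0.34, adjusted p = 0.045), and Cox7a1 (-0.54 ± 0.34, adjusted p = 0.12) was not called, all in edgeR. The general isoforms Cox6a1 (3.34 ± 0.38), Cox8a (3.04 ± 0.37) and Cox7a2 (1.31 ± 0.35) were called higher. Without 5 dpi F 32 members were called higher and 0 lower, where 94.3% of all genes were higher, and without 5 dpi M 47 and 0, where 94.7% were. With spots classed by 6 of the 12 genes and scaled to the other 6, 60 members were called higher and 3 lower, where 95.4% and 0.572% of all genes were, and with the roles exchanged 90 higher and 0 lower, where 98.4% and 0.0811% were.

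Per cardiomyocyte UMI, the median log2 fold change of intermediate over rich spots was 0.07 over the members, beside 0.81 over all genes tested, of which 21.1% were higher and 0.05553% lower. Ndufa4l2 alone was called higher, at 1.06 ± 0.38 (adjusted p = 0.035 in edgeR), and 0 members were called lower, with 3 higher and 0 lower at an unadjusted p under 0.05, where 43.5% and 0.222% of all genes were. DESeq2 called 1 higher and 0 lower. The Ndufa4l2 call was lost without either 5 dpi section.

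Set out by bins of cardiomyocyte share common to all sections, the same rise was seen. The kept spots of all 4 sections were divided at 0.402%, 3.44%, 7.41% and 9.81% of marker share, which are the limits of pooled quintiles. The summed members went from 30692, 27782 and 29193 CPM in the lowest quintile to 185115, 173761 and 216588 CPM in the highest. The control had spots in the upper 3 quintiles only, 8, 376 and 762 of them, and stood at 216215 CPM in the highest. Within a quintile the marker level still differed, with 92548 CPM of the 12 genes in the control and 85844, 85966 and 84985 CPM after infarction in the quintile below the highest. There the members of the control stood at 212995 CPM and the infarcted sections at 150435, 146736 and 184329 CPM.

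**Figure D3:**
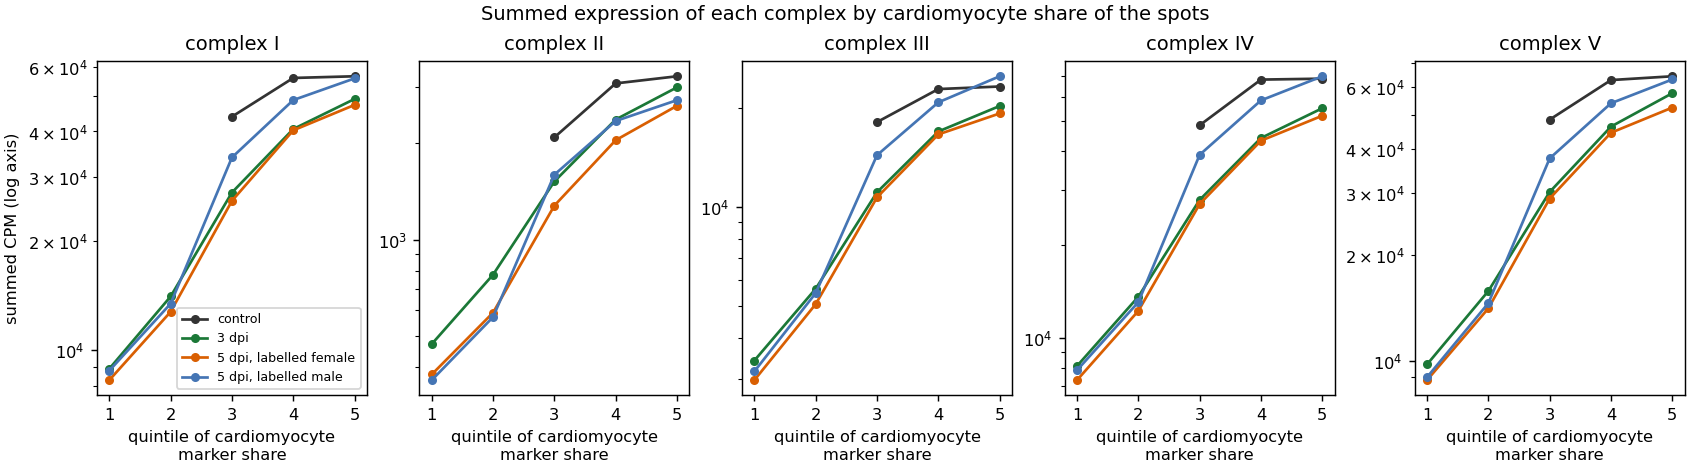
Summed CPM of each complex (log axis) against the quintile of cardiomyocyte marker share, 1 line per section, with the control present in quintiles 3 to 5 only. All 5 complexes rise with the share in every infarcted section, and in the highest quintile 5 dpi M lies close to the control, with 216588 against 216215 CPM over all members.

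The isoform shares followed the same axis. Transcripts are tagged near their 3′ end, so UMIs count molecules with no division by length, and since capture may differ between 2 genes the share of a pair was compared between spots and not read as a molar ratio. Cox6a2 gave 93.4, 92.1 and 93.7% of the UMIs of the Cox6a pair in rich and 59.7, 35.8 and 41.7% in poor spots. Cox8b gave 84.4, 83.5 and 85.1% of its pair in rich and 38.5, 20.1 and 24.4% in poor spots. Cox7a1 gave 60.1, 59.2 and 61.7% in rich and 38.1, 25.2 and 27.3% in poor spots.

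All 3 muscle shares were lower in poor spots in 3 of 3 sections. The differences were -47.3 ± 11.97 percentage points for Cox6a, -56.7 ± 9.46 for Cox8 and -30.1 ± 7.05 for Cox7a (SD, n = 3), each with a two-sided exact permutation p = 0.25, the smallest that 3 sections allow. In the lowest quintile the Cox6a2 share was 13.04, 6.72 and 8.6003%, and in the highest 94.6, 93.3 and 95.01%. Between the second and the third quintile the Cox8b share went from 31.6, 31.05 and 28.8% to 64.3, 70.7 and 75.5%. The general form made up most of the UMIs of all 3 pairs only in the lowest quintile.

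**Figure D4:**
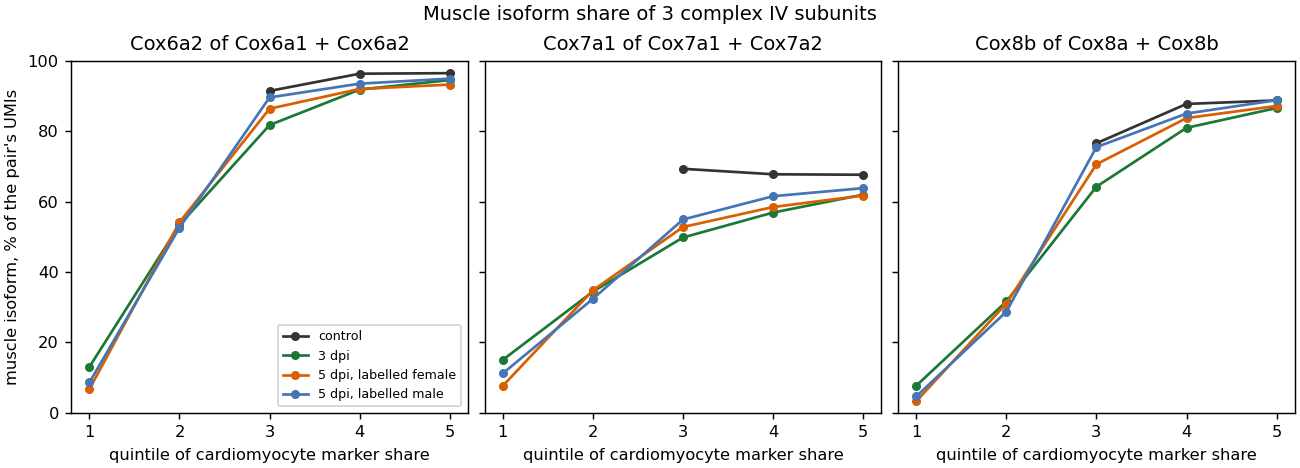
Share of the muscle isoform in the UMIs of the Cox6a, Cox7a and Cox8 pairs (%) against the quintile of cardiomyocyte marker share, 1 line per section. All lines of the infarcted sections climb, and for Cox7a the control lies above them at quintiles 3 to 5 (67.7% in the highest, against 62.01, 61.8 and 63.9%).

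In rich spots the control and the infarcted hearts were nearer to each other. Members summed to 21.5% of UMIs outside mitochondrially encoded genes in rich spots of the control, and to 16.9, 14.4 and 18.5% after infarction. Of all UMIs the shares were 12.9% and 10.3, 8.54 and 13.2%, so that 5 dpi M lay above the control on that scale. Of 86 members, 70 were above all 3 infarcted sections in the control, where 19.8% of all genes at that level were, but only Cox7a1 by 1.5-fold or more, where 1.28% of genes were. Cox7a1 stood at 6478 CPM in the control against 3852, 2937 and 4097 CPM. Cox8b stood at 6257 CPM against 4006, 3421 and 5262 CPM, and Cox6a2 at 9794 CPM against 7057, 5781 and 7769 CPM. Cox6a1 alone of the 86 was below all 3 infarcted sections, at 354 CPM against 499, 499 and 524 CPM, where 46.7% of genes were below. None was below by 1.5-fold or more, where 13.1% of genes were.

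Rich spots after infarction were not free of other cells. The 7 fibroblast genes summed to 1165 CPM in rich spots of the control, below the values of the infarcted sections given above, and the 8 macrophage genes to 768 CPM, also below. Their part in the CPM differences was not tested.

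Scaled to cardiomyocyte RNA, 5 dpi M lay near the control and the other infarcted sections below it. Rich spots held 211 member UMIs per 100 UMIs of the 12 cardiomyocyte genes in the control and 172, 170.3 and 215 in the infarcted sections. Of 86 members, 78 at 3 dpi and 75 in 5 dpi F were below the control, where 28.3% and 21.2% of the 3524 genes were, with median log2 ratios of the members of -0.25 and -0.30. In 5 dpi M 37 were below it, where 20.3% of genes were, with a median of 0.02. In the highest quintile of marker share the control held 203 and the infarcted sections 170.1, 165 and 207.

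**Figure D5:**
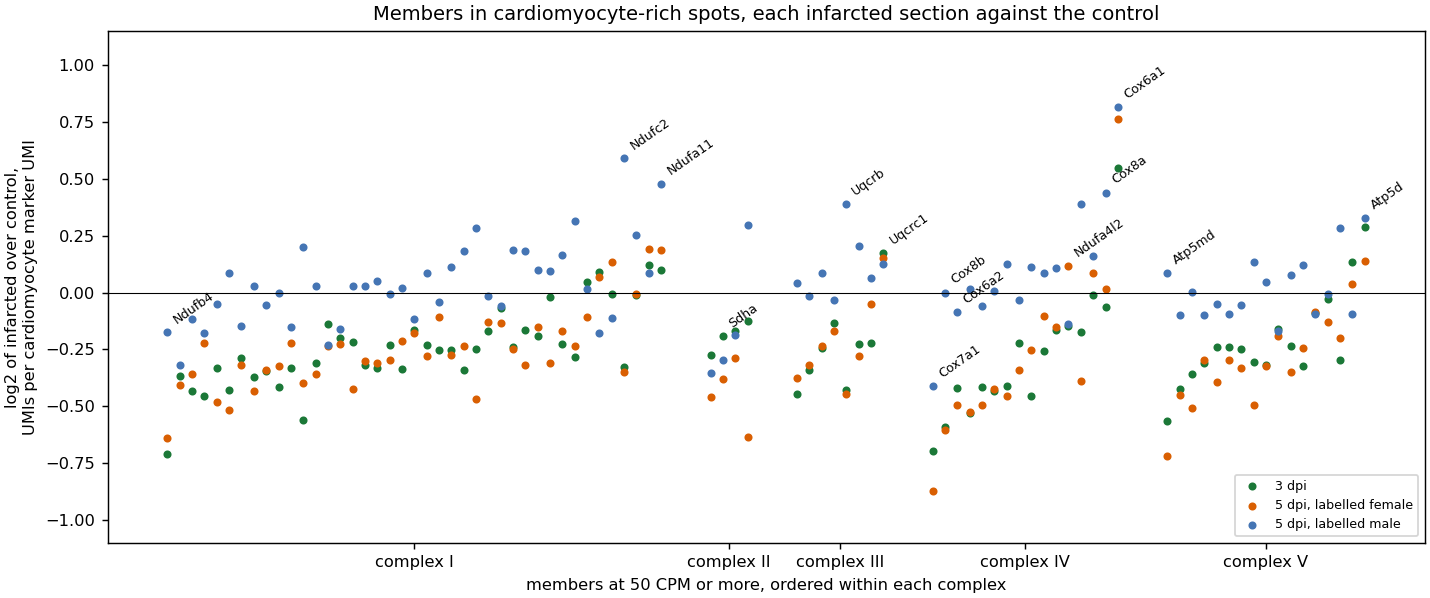
Log2 ratio of each infarcted section to the control, in UMIs per cardiomyocyte marker UMI in rich spots, for the 86 members at 50 CPM or more, grouped by complex. Most points of 3 dpi and 5 dpi F lie below 0, those of 5 dpi M lie around 0, and Cox7a1 has all 3 points below 0 and Cox6a1 all 3 above.

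Per cardiomyocyte UMI in rich spots, 33 members were above all 3 infarcted sections in the control, where 9.79% of genes were, and 5 were below, where 61.7% were. None of the 86 was 1.5-fold outside, where 0.5108% of genes were above and 18.1% below. The 33 comprised 15 of complex I, 3 of complex II, 2 of complex III, 5 of complex IV and 8 of complex V. Cox7a1 stood at 6.35 UMIs per 100 cardiomyocyte UMIs against 3.92, 3.47 and 4.77, and its ratio to the infarcted mean, 1.57, was the largest of the 86. Ndufb4, a small membrane-arm subunit of complex I, stood at 1.58 against 0.965, 1.01 and 1.3995. Cox8b had the next ratio, at 6.13 against 4.07, 4.04 and 6.13.

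The 5 members below the infarcted range were Atp5d, Cox6a1, Ndufa11, Ndufb7 and Uqcrc1. Cox6a1 stood at 0.347 against 0.507, 0.589 and 0.6101. Ndufa11, of the membrane arm of complex I, stood at 1.25 against 1.34, 1.42 and 1.74, and Atp5d, the delta subunit of the synthase, at 1.96 against 2.399, 2.16 and 2.47. The scale itself differed between sections. Within rich spots Pln, the inhibitor of the calcium pump, stood at 4731 CPM in the control against 3089, 2072 and 2678 CPM, and the cardiac actin gene Actc1 at 11098 CPM against 11777, 13032 and 15614 CPM. On the 7 sarcomere genes alone the control held 1.18 times the infarcted mean of the summed members, and on all 12 genes 1.14 times.

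Over all kept spots per cardiomyocyte UMI, 4 of 86 members were above the infarcted range in the control, where 2.75% of genes were, namely Cox6a2, Cox7a1, Cox8b and Ndufs1. Cox7a1 alone was above by 1.5-fold, where 0.6243% of genes were. There 41 members were below the range, where 92.1% of genes were, and Cox6a1, Cox7a2l, Cox8a, Ndufa4l2 and Ndufaf2 were below by 1.5-fold, where 81.3% were.

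Isoform shares in rich spots need no scale. The Cox7a1 share was 67.7% (67.2 to 68.2) in the control with its exact 95% binomial interval, against 60.1% (59.2 to 60.98), 59.2% (57.9 to 60.4) and 61.7% (60.9 to 62.4), a difference of -7.37 percentage points between the infarcted mean and the control, with an SD of 1.28 over the 3 infarcted sections. The Cox6a2 share was 96.5% against 93.4, 92.1 and 93.7% (-3.47 points), and the Cox8b share 88.6% against 84.4, 83.5 and 85.1% (-4.26 points). All 3 shares were below the control in 3 of 3 infarcted sections. The fibroblast and macrophage sums of rich spots, given above, were higher in the same sections, and their part in the shares was not tested. In the highest quintile of marker share, Cox7a1 (67.7% against 62.01, 61.8 and 63.9%) and Cox6a2 (96.6% against 94.6, 93.3 and 95.01%) kept this order in 3 of 3 sections. For Cox8b the values there were 88.8% against 86.7, 87.2 and 88.9%, with 5 dpi M at the level of the control.

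The muscle isoforms are also used by skeletal muscle, and some of them by brown fat, so markers of both were counted. Of the brown fat genes, Elovl3 had 0 UMIs in every section and Ucp1 had 2 UMIs in 5 dpi F and 0 elsewhere. Cidea had between 182 and 366 UMIs per section. Of the fast skeletal myosins, Myh4 had 0 UMIs, Myh1 had 1 in the control and Myh2 had 1 at 3 dpi, with 0 elsewhere. The list also held Ckm, which is among the 12 cardiomyocyte genes, and Acta1, the skeletal actin gene, which cardiomyocytes can also express. Acta1 had 1080 UMIs in the control and 6831, 5814 and 9169 in the infarcted sections, and its part in the isoform values was not tested.

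The ratio of mitochondrially encoded to nuclear respiratory chain RNA differed between classes and sections. The 13 protein genes of mitochondrial DNA gave 314 UMIs per 100 member UMIs in rich spots of the control and 377, 478 and 218 after infarction. In poor spots the ratio was 205, 149.8 and 89.5, lower than in rich spots in 3 of 3 sections. Per 100 cardiomyocyte UMIs, rich spots held 663 mitochondrially encoded UMIs in the control and 649.6, 814 and 469 in the infarcted sections. The 5 dpi M section was thus the highest of the infarcted sections in nuclear members on that scale and the lowest in mitochondrially encoded genes.

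Other genes of the pathway were read from lists, beside the 26.1% of all genes called lower and 26.3% called higher on the same scale. All 10 electron carriers, entry points and transporters tested were lower in poor spots, with a median of -2.61. Without TMM scaling 9 were lower, where 16.3% of all genes were. With all UMIs as the library 9 were lower and 0 higher, where 9.45% and 73.0% of all genes were. On that scale 1 was higher at an unadjusted p under 0.05 in edgeR, where 73.9% of all genes were. Slc25a4, the adenine nucleotide carrier of heart and muscle, changed by -3.28 ± 0.22, and Slc25a5, its more general counterpart, by -0.66 ± 0.14 (adjusted p = 0.0012 in edgeR). Slc25a5 had the smallest change of the 10. It stood at 491, 464 and 535 CPM in rich and 525, 371 and 381 CPM in poor spots, so by CPM it was higher in poor spots at 3 dpi. Cyc1, the cytochrome c1 of complex III, changed by -2.87 ± 0.16 and Cycs, cytochrome c, by -2.70 ± 0.24.

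Of 38 tested assembly factors outside the Ndufaf series, 34 were lower and 0 higher, with a median of -1.11, and Coa6, Cox15, Cox16 and Cox18 were not called. At an unadjusted p under 0.05, 36 were lower and 0 higher in edgeR, where 28.2% and 29.3% of all genes were, and DESeq2 called 32 lower and 0 higher. Without TMM scaling 24 were lower and 0 higher, where 16.3% and 47.2% of all genes were. With all UMIs as the library 13 were lower and 5 higher, where 9.45% and 73.0% of all genes were. Among 4 other small subunits and inhibitors, Atpif1, the inhibitor of the synthase, Higd1a and Higd2a were lower (-0.99 ± 0.14, -1.28 ± 0.16 and -1.14 ± 0.13), though none of the 4 was called lower with all UMIs as the library. AA467197, a homologue of Ndufa4, was higher (2.77 ± 0.26, adjusted p = 5.0e-07 in edgeR), at 74.2, 31.5 and 44.4 CPM in poor and 8.52, 4.38 and 3.4998 CPM in rich spots.

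Of 10 tested regulators of mitochondrial genes, 8 were lower and 1 higher. With all UMIs as the library 6 were lower and 2 higher, where 9.45% and 73.0% of all genes were. DESeq2 called 8 lower and 0 higher, with 1 higher at an unadjusted p under 0.05. Perm1, a muscle regulator of mitochondrial genes, changed by -4.36 ± 0.31 and Ppargc1a, the coactivator PGC-1 alpha, by -3.68 ± 0.30, from 108, 94.5 and 85.3 and 21.6, 23.6 and 24.1 CPM in rich spots. Esrra, the ERR alpha receptor, changed by -1.71 ± 0.14 and Tfam, the transcription factor of mitochondrial DNA, by -1.01 ± 0.16. Nrf1, whose motif is among those counted above, was higher in poor spots (0.82 ± 0.24, adjusted p = 0.0092 in edgeR), at 19.1, 17.9 and 16.6 CPM against 7.39, 7.003 and 7.87 CPM. That call was lost without 5 dpi F, where 0 of the 10 regulators and 20.05% of all genes were called higher. Gabpa was not called (-0.26 ± 0.21, adjusted p = 0.31 in edgeR).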

How the data were processed

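Spatial libraries of 4 heart sections were analysed as raw UMI counts per gene and spot, which the authors made with Space Ranger 1.3.1 and deposited without normalization. Their mouse reference had a GFP sequence added, the labels name mm10, and no coordinates of the counted genes were used. Spots under the tissue flag were kept from 500 UMIs and 250 genes upward, up to 50% mitochondrial UMIs. The 623 spots of 5 dpi M without the tissue flag entered no comparison.

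The 9 sums of 3 infarcted sections and 3 spot classes entered glmQLFit and glmQLFTest of edgeR (version 4.0.16, beside limma version 3.58.1, under R version 4.3.3) after filterByExpr and with a section block, scaled either by TMM or by an offset of the log UMIs of the 12 cardiomyocyte genes. DESeq2 (version 1.42.0) was an alternative. Hearts, not spots, are the replicates, and p-values measure the spread between these sections. Genes below filterByExpr were left out. The method was tested on simulated data with 200 changed genes. There 7.14% of calls on the library scale and 8.80% per cardiomyocyte UMI were false, somewhat above the nominal rate. In the real data 52.4% and 97.4% of genes were called between poor and rich spots. The simulation had far fewer changed genes, so it does not give the share of false calls in these data. Tables and figures were made in Python (version 3.11.15) with NumPy (version 2.4.6), SciPy (version 1.17.1), pandas (version 2.3.3) and matplotlib (version 3.10.9).

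The members and lists were chosen with earlier results of these data known. Genes were named by a rule, which took isoform sets, core subunits, the highest and lowest log2 fold change of complexes I, III, IV and V in each scaling, the 3 highest and 3 lowest ratios of control to infarcted sections in rich spots per cardiomyocyte UMI, and up to 6 members called in intermediate spots. The text also names genes of counts of 5 or fewer, and genes of the pathway lists picked after their values were seen. Reads of near-identical copies, such as Cox5b and Cox5b-ps, cannot be assigned with certainty. 1 gene that the rule names is not reported here.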

Additional observations from a re-analysis of the deposited data

Results flagged for a closer look

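Ndufa4l2 had ratios of different sign in the infarcted sections. Its log2 ratio of poor over rich spots, on CPM without TMM scaling, was -0.083 at 3 dpi, 0.12 in 5 dpi F and 0.77 in 5 dpi M. The difference between the time points was not tested, since 3 dpi has 1 section.

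The 623 spots of 5 dpi M without the tissue flag held 2229014 UMIs outside mitochondrially encoded genes, member RNA among them. Cox6a1 stood at 577 CPM there, against 354 CPM over the kept spots of the control, and Ndufa4l2 at 172 CPM, against 86.6 CPM. The kept spots of 5 dpi M itself held 548 CPM of Cox6a1 and 100.5 CPM of Ndufa4l2. In the spots without the flag the 4 erythroid genes summed to 65502 CPM, the members to 54387 CPM and the 12 cardiomyocyte genes to 16906 CPM. Whether the spots without the flag lie over tissue, and where their RNA came from, was not tested.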

How the results depend on the processing

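Between 81 and 90 members were called lower in poor spots under every alternative of the library scaling. With all UMIs as the library, mitochondrially encoded genes included, 4 members were called higher, where 73.0% of all genes were. On that scale the log2 fold changes of Atp5g2 (0.0013), Cox6a1 (0.85), Cox7a2l (0.27), Cox8a (0.56), Ndufa4l2 (0.83) and Ndufaf2 (0.33) turned. Without TMM scaling Cox6a1 (0.29) and Ndufa4l2 (0.27) turned, and leaving out 1 section gave -0.22 to 0.019 for Cox6a1 (above 0 without 5 dpi M) and -0.36 to 0.045 for Ndufa4l2 (above 0 without 3 dpi). Cox6b2 turned between the lowest and the highest quintile (-0.29). For intermediate spots, 4 members were called lower and 1 higher with all UMIs as the library, where 1.17% and 21.7% of all genes were. Without the section block 0 were called lower, and leaving out 1 section gave 0 to 72 lower, with 0 without 5 dpi F.

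Per cardiomyocyte UMI, 1 member was called lower in poor spots without the section block and 0 with the roles of the 6 and 6 markers exchanged, and leaving out 1 section gave 0 to 3 lower and 32 to 90 higher. Cox7a1 turned between the quintiles (0.037) and with the roles exchanged (0.033). In intermediate spots the 1 call became 0 without the filter on low counts, without the block, with 7 sarcomere markers and with spots classed by 6 markers and scaled to the other 6, stayed 1 with those roles exchanged, and became 4 with lower class limits, and leaving out 1 section gave 0 to 7. Of 431 alternative values of poor over rich spots for 36 named members on the library scale, 411 kept direction and call, 8 lost and 1 gained a call and 11 turned. Per cardiomyocyte UMI 355 kept both, 48 lost and 26 gained a call and 2 turned. The quintiles have no intermediate class, so that alternative was not run there.

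With the lower class limits the Cox8b share of infarcted rich spots differed from the control by -5.15 points. Of the members 1.5-fold outside the infarcted range, 77 above and 1 below became 1 and 5 per cardiomyocyte UMI, 1 and 0 in rich spots and 0 and 0 in rich spots per cardiomyocyte UMI, the last 2 settings chosen after seeing the data, and 0 were below at 2-fold. The alternative scalings of the pathway lists were also chosen after seeing the data. Depth limits scarce members such as Cox6b2. Spot classes were paired within sections through the section block, and the control and 3 dpi hearts, with 1 section each, were paired with no other heart.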
